A study of Mus musculus with 9 samples.

Results

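Apolipoprotein L (Apol) genes were followed in the kidneys of wild-type and Trex1-deficient mice. The 6 genes described are Apol9a, Apol9b, Apol6, Apol8, Apol7a and Apol10b, out of 14 annotated Apol genes and 54532 genes counted. They were selected on the difference between vehicle-treated Trex1-/- and wild-type kidneys, in which Apol9a and Apol9b rose strongly, so that difference is a description and was not tested. PolyA-selected kidney RNA was sequenced in 9 libraries, 3 in each of 3 groups. The wild-type (WT) mice were bought at 4 to 8 weeks of age, and no treatment is given for them. The other 2 groups were Trex1-/- mice that were 1 month old when daily intraperitoneal injections began and were treated for 2 weeks. One received PBS as the labels name it, which the methods give as 1% Tween 80 in PBS, and the other received 10 mg/kg SN-011 in that vehicle. All mice had the C57BL/6J background. The Trex1-/- mice were bred from heterozygous parents and carried the deletion in every tissue, whereas the WT mice came from a supplier, so genotype cannot be told apart from injection or source. The labels do not say whether each library came from its own animal, and p-values measure the spread between these libraries.

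TREX1 is an exonuclease that removes DNA from the cytosol. Without it, DNA engages the sensor cGAS, which activates the adaptor STING and the transcription of type I interferon, and SN-011 is an antagonist of STING. Secreted interferon acts through its receptor and the JAK kinases on transcription factors such as STAT2 and IRF9, which act at the interferon-stimulated response element (ISRE) in the promoters of target genes. The APOL proteins bind lipids. Their best-known member, human APOL1, circulates on high-density lipoprotein and lyses trypanosomes, while most of the others stay inside cells. The mouse genes arose by repeated duplication, and Apol9a and Apol9b are near-identical copies known to respond to interferon.

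The libraries held 16118813 to 21928965 counts with 23180 to 24657 genes detected, and 16646 genes passed the filter on low counts. Expression is given in CPM, a gene's reads per 1000000 reads of the library, with library totals scaled by TMM factors. At this depth, 3 reads correspond to 0.135 to 0.186 CPM. Trex1 had 0 counts in all 9 libraries, WT included, and its exons overlap those of Atrip, so it gives no check of genotype. The 6 proximal tubule markers, which define the main cell type of kidney cortex, summed to 8131 to 9996 CPM. Reads of 4 Y-linked genes summed to over 10 CPM in all 3 PBS libraries (162 to 176) but in only 1 WT library (replicate 3, 153) and 1 SN-011 library (replicate 2, 188), and to at most 0.377 CPM in the others, while sex is missing from the labels. SN-011 replicate 2 also stood apart from its group, with a chi-square per gene of up to 68.1 against the other 2 libraries, beside 14.1 between those, and so did WT replicate 3, at 28.7 against each of the others beside 7.18 between those. A fit with a term for these 5 libraries (the Y-linked term) is given beside the calls described that it changed.

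Of the 14 Apol genes, 13 lie in a cluster on chromosome 15 (GRCm38). Among the 6 described, Apol6 lies at one end of the cluster (chr15:77044729-77057106, plus strand). Apol7a (chr15:77388219-77399110, minus strand) and Apol9a (chr15:77403789-77411135, minus strand) are adjacent. Apol10b (chr15:77583819-77596125, minus strand), Apol9b (chr15:77729039-77736382, plus strand) and Apol8 (chr15:77747798-77757003, minus strand) follow. Apol9a and Apol9b thus stand on opposite strands with other family members between them.

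The promoters are shown because Apol9a and Apol9b had the same sequence there. RefSeq promoter windows of 300 bases (250 before to 50 after each start, GRCm38.p6) were held for 11 of the 14 genes, including 5 of the 6 described. The ISRE was searched as TTTCNNTTTC on both strands. The window of Apol9a at chr15:77410985-77411284, read on the minus strand, holds 2 overlapping matches, which are in capitals and share their middle TTTC:

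Apol9a: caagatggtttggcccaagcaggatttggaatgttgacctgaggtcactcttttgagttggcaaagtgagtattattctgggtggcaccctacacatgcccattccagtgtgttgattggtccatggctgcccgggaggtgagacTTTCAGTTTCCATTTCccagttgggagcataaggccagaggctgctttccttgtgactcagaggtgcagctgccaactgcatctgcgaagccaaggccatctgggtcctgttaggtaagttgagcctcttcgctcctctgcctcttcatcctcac

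Aligned over 281 bases, the windows of Apol9a and Apol9b were identical at 281. Both genes therefore carried the same pair of matches. The stretches around the matches of the other family members are shown with that of Apol9b to compare the element and its flanks, again with matches in capitals and each read in the direction of its gene:

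Apol9b (chr15:77729025-77729060, plus strand): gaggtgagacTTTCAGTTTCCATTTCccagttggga

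Apol10b (chr15:77596110-77596139, minus strand): gaaattttacTTTCATTTTCgtgcactgag

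Apol11b (chr15:77643317-77643346, minus strand): gaatttttacTTTCACTTTCatgcactggg

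Apol10a (chr15:77476986-77477015, plus strand): gaaatttttcTTTCACTTTCatgcattggg

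Apol11a (chr15:77508209-77508238, plus strand): gaatttttacTTTCACTTTCatgcactggg

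Apol7c (chr15:77533345-77533380, minus strand): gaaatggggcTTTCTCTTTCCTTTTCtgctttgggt

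Apol7e (chr15:77698843-77698878, plus strand): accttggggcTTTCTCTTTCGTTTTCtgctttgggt

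An ISRE match was present in 8 of the 11 Apol genes with a window, 2 matches in 4 of them and 1 match in the other 4. No match to these letters was found in the windows of Apol8, Apol7a and Apol7b. Across all 27025 genes with a RefSeq window, 3.99% held the motif (3.44% of 32851 windows), and among 17 interferon targets with a window 12 held it. The interferon-gamma-activated site (GAS), searched as TTCNNNGAA, was found in 3 Apol genes (Apol10a, Apol11a and Apol11b), beside 9.55% of all genes with a window (8.3% of all windows). It was not found in the windows of Apol9a, Apol9b or Apol10b. These matches describe the sequence and do not show that a factor was bound.

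The coding sequences set how well the counts of Apol9a and Apol9b can be told apart. Each is 930 bases long (310 codons, stop not included), and they differed at 14 positions (98.5% identity). The longest identical run was 446 bases. The part richest in differences, coding bases 494 to 553, holds 6 of the 14, which are in capitals:

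Apol9a: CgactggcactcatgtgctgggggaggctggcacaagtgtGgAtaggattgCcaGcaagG

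Apol9b: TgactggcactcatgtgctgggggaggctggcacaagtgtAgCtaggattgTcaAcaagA

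Against the other 4 genes, Apol9a and Apol9b were 48.4% to 57.6% identical. Of all 150-base windows along the transcript, 28.1% in Apol9a and 23.7% in Apol9b occurred in another gene, most often the other copy. None did for Apol6, Apol8, Apol7a or Apol10b. Only read pairs that map uniquely were counted, so pairs that lie wholly in the shared stretches are missing from both copies. The counts below are for the parts that differ, and a small exchange between the copies cannot be told apart from their own expression.

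Apol9a had 1.56, 1.31 and 1.79 CPM in the WT libraries. In the PBS-treated Trex1-/- libraries it had 31.0, 45.8 and 35.6 CPM, and in the SN-011-treated ones 14.3, 21.4 and 17.6 CPM. Every PBS library lay above every SN-011 library, and every SN-011 library lay above every WT library. The group means were 1.55 ± 0.242, 37.4 ± 7.57 and 17.8 ± 3.56 CPM (SD, n = 3 each).

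Apol9b had 1.60, 1.40 and 3.41 CPM in WT, 31.4, 48.0 and 38.5 CPM with PBS, and 12.4, 19.6 and 18.9 CPM with SN-011. The groups again did not overlap, with WT lowest and PBS highest. WT replicate 3 stood above the other 2 WT libraries. Its group means ± SD were 2.14 ± 1.11 for WT, 39.3 ± 8.31 for PBS and 17.0 ± 3.96 CPM for SN-011. In both genes PBS replicate 2 was the highest of its group and SN-011 replicate 1 the lowest of its group.

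**Figure D1:**
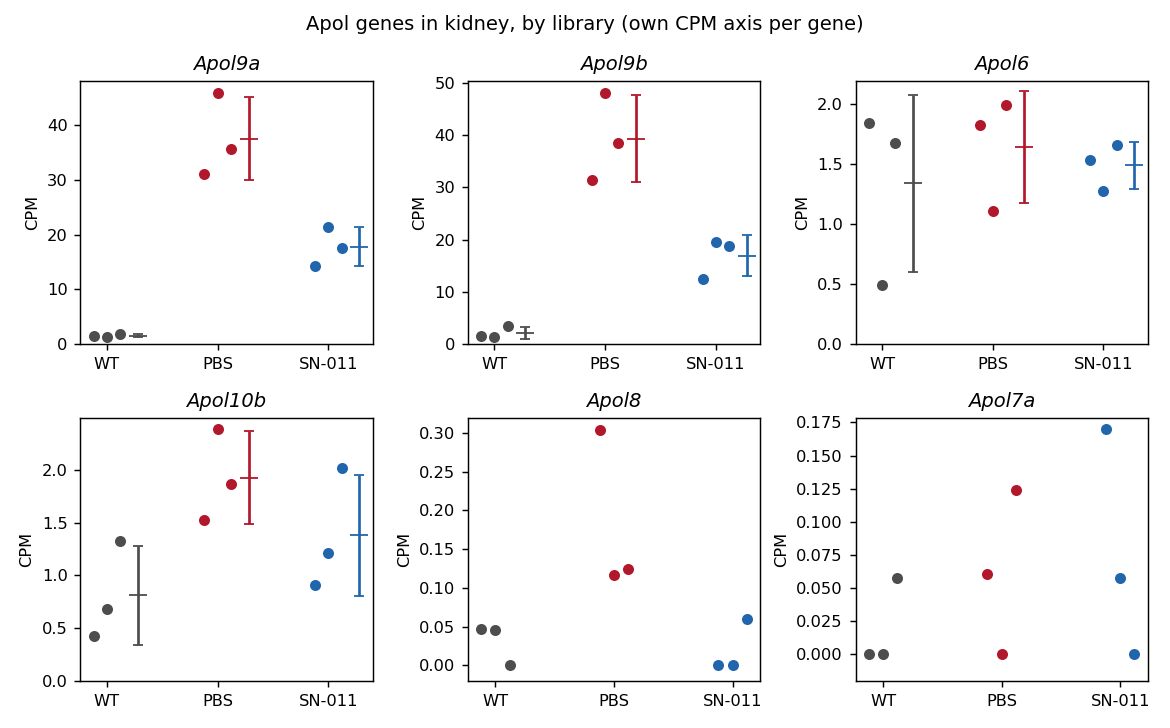
TMM-scaled CPM of the 6 Apol genes by library, on a linear axis of its own for each gene, in WT (grey), Trex1-/- with PBS (red) and Trex1-/- with SN-011 (blue). Points are libraries, and bars beside them are the mean ± SD of 3, left out for Apol8 and Apol7a because they had at most 5 reads in a library. Apol9a and Apol9b separate all 3 groups, while Apol6 overlaps throughout.

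Apol6 had 1.84, 0.497 and 1.68 CPM in WT, 1.83, 1.11 and 1.99 CPM with PBS, and 1.53, 1.28 and 1.66 CPM with SN-011. The 3 groups overlapped, and the lowest value of all was a WT library. Of its exon bases, 1.4% overlap the opposite-strand gene Mb, and the strand setting of the counting is not given in the sources used here. Apol10b had 0.424, 0.677 and 1.33 CPM in WT, 1.52, 2.39 and 1.86 CPM with PBS, and 0.907, 1.22 and 2.02 CPM with SN-011. Its PBS libraries all lay above the WT libraries, whereas the SN-011 libraries overlapped both groups.

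Apol8 and Apol7a were close to the limit of detection and did not pass the filter, so that 4 of the 6 genes were tested. Apol8 had 1, 1 and 0 reads in WT, 5, 2 and 2 with PBS and 0, 0 and 1 with SN-011. Apol7a had 0, 0 and 1 reads in WT, 1, 0 and 2 with PBS and 3, 1 and 0 with SN-011. For Apol8 every PBS library lay above every WT and SN-011 library, by as little as 1 read, and for Apol7a the groups overlapped. No test was run on either gene at this depth.

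Levels were set side by side per kilobase of coding-transcript exon, and the place of Apol9a depended on that choice of length. In the PBS group Apol9b had 21.6 ± 4.57 and Apol9a 20.7 ± 4.19 CPM per kb (SD, n = 3), which differ by less than their spread. Apol10b followed with 0.829 ± 0.189 and Apol6 with 0.476 ± 0.136, ranges that did not overlap, and Apol8 (0.0616) and Apol7a (0.0244) came last on a few reads. In WT the order began with Apol9b at 1.17 ± 0.609 and Apol9a at 0.859 ± 0.134 CPM per kb, ahead of Apol6 at 0.388 ± 0.213 and Apol10b at 0.349 ± 0.201. Apol6 and Apol10b did not differ there beyond their spread. Over the exons of all transcripts, which for Apol9a include a retained intron, Apol9a had 6.29 CPM per kb beside 21.6 for Apol9b with PBS. In WT it then had 0.261, below Apol10b at 0.349 and Apol6 at 0.297. Neither length allows for the stretches shared by both copies, in which unique pairs could not be counted, so the order of Apol9a and Apol9b is not settled by these values.

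The difference between PBS-treated Trex1-/- and WT kidneys, which chose the genes, is described first. Apol9a was 24.2-fold higher (log2 fold change 4.60, SE 0.222) and Apol9b 18.8-fold higher (4.23, SE 0.322). The log2 fold change was 1.27 (SE 0.441) for Apol10b and 0.30 (SE 0.437) for Apol6. In this comparison 1.44% of all genes tested were called higher at an edgeR adjusted p under 0.05, and 13.1% had PBS libraries all above the WT libraries. With a term for Y-linked transcripts the log2 fold change was 4.33 for Apol9a and 3.86 for Apol9b. Without WT replicate 3, the WT library with Y-linked reads, that of Apol9b was 4.70.

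The next comparison asked whether the STING antagonist changed these levels in Trex1-/- mice. Apol9a was at 0.474 of the PBS level (log2 fold change -1.08, SE 0.178) and Apol9b at 0.431 (-1.21, SE 0.269). Neither passed the adjusted threshold in edgeR's quasi-likelihood test over all 16646 genes, with adjusted p = 0.168 for Apol9a (unadjusted 1.13e-04) and 0.210 for Apol9b (unadjusted 0.00104). No gene at all was called in this comparison (0%), while 11.4% had an unadjusted p under 0.05. The SN-011 libraries were all below the PBS libraries for both genes, as they were for 8.41% of all genes tested. The PBS libraries had been used to choose the genes as high, which by itself favours a lower value in the other group.

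The call for Apol9a and Apol9b depended on the test and on 1 library. Both passed with edgeR's exact test (adjusted p = 4.14e-04 and 0.0116), with DESeq2's Wald test (1.56e-04 and 0.00256), and with the quasi-likelihood test when the filter on low counts was dropped (0.00116 and 0.00366). Both also passed when SN-011 replicate 2 was left out (edgeR adjusted p = 0.0108 and 0.0398), the library with Y-linked reads that stood apart from its group and in which both genes had their highest SN-011 level. With the term for Y-linked transcripts, the log2 fold changes were -0.83 and -0.81 (edgeR adjusted p = 0.225 and 0.363). Over all 19 alternatives, the log2 fold change stayed between -1.24 and -0.83 for Apol9a and between -1.35 and -0.81 for Apol9b.

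Apol10b and Apol6 gave no call against PBS. For Apol10b the log2 fold change was -0.48 (SE 0.423, edgeR adjusted p = 0.703), and for Apol6 it was -0.14 (SE 0.438, adjusted p = 0.929). Their standard errors leave room for changes of the size seen in Apol9a.

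Apol9a and Apol9b remained above WT under SN-011. Apol9a was 11.5-fold higher than in WT (log2 fold change 3.52, SE 0.220, edgeR adjusted p = 1.13e-04), and Apol9b 8.09-fold higher (3.02, SE 0.319, adjusted p = 0.00343). In this comparison 0.823% of all genes tested were called higher and 11.8% had all SN-011 libraries above the WT libraries. Apol10b (log2 fold change 0.79, SE 0.450, adjusted p = 0.391) and Apol6 (0.17, SE 0.438, adjusted p = 0.882) did not pass. The WT libraries had been used to choose the genes as well. Both calls were made under all 19 alternatives. On the CPM scale, the excess over WT with SN-011 was 45.2% of the excess with PBS for Apol9a and 39.9% for Apol9b.

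**Figure D2:**
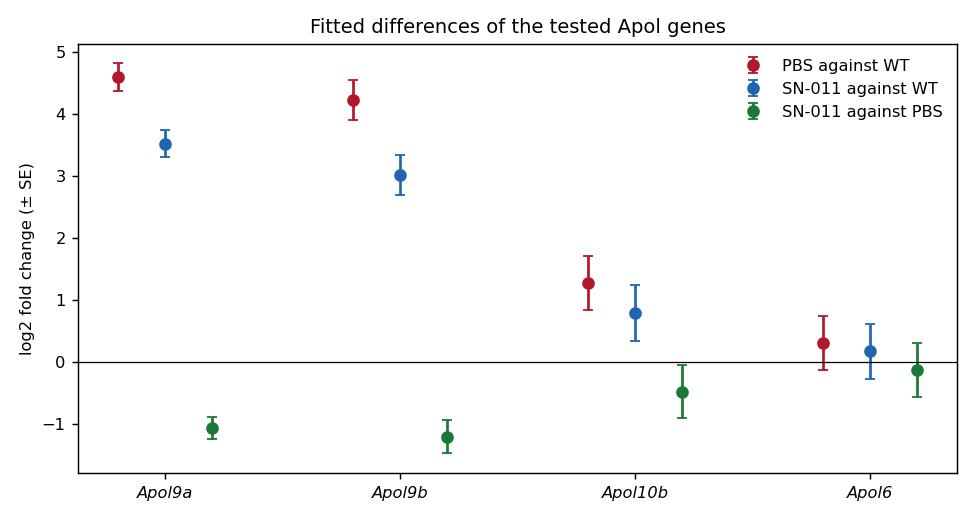
Log2 fold changes ± SE of the 4 tested Apol genes from 1 edgeR fit of 9 libraries, for PBS against WT (red), SN-011 against WT (blue) and SN-011 against PBS (green). The comparisons share libraries. The bars of Apol9a and Apol9b overlap in each comparison, and Apol6 lies near 0.

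The ratio of Apol9a to Apol9b reads needs no scaling between libraries. Apol9a took 49.3% (exact 95% interval 36.8 to 61.8) and 48.3% (35.2 to 61.6) of the reads of both genes in WT replicates 1 and 2, but 34.4% (24.7 to 45.2) of 90 reads in WT replicate 3. With PBS the shares were 49.7%, 48.8% and 48.0%, and with SN-011 53.5%, 52.2% and 48.3%. The intervals cover counting error only. WT replicate 3 was the only library whose interval did not reach 50%, and it held 59 reads of Apol9b beside 31 of Apol9a. The log2 ratio averaged -0.36 ± 0.497 in WT, -0.068 ± 0.0483 in PBS and 0.077 ± 0.157 in SN-011 libraries (mean ± SD). The difference of 0.14 between SN-011 and PBS gave p = 0.3 in an exact two-sided permutation test, as did the difference of 0.43 between SN-011 and WT, and the smallest p that 3 against 3 allows is 0.1.

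**Figure D3:**
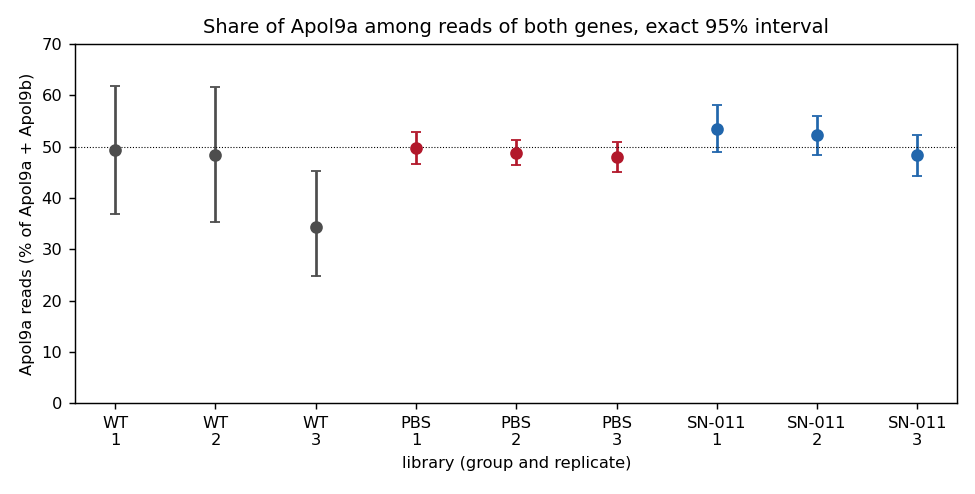
Share of Apol9a among the reads of Apol9a and Apol9b in each library, in percent, with exact binomial 95% intervals, in WT (grey), PBS (red) and SN-011 (blue). The dotted line marks 50%, and WT replicate 3 at 34.4% is the lowest.

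The genes whose profile over the 9 libraries was most like that of Apol9a were found by the root-mean-square (RMS) difference of log2 CPM, each gene centred on its own mean, among 14838 genes with at least 1 CPM on average. Apol9b was at 0.293. Outside the family, the 10 closest were Oasl1 (0.427), Oas3 (0.443), Cxcl10 (0.495), Oas2 (0.555), Mx1 (0.656), Gm4841 (0.663), Slfn4 (0.673), Isg15 (0.676), Ubd (0.678) and Ifit1 (0.686). Oas2 and Oas3 encode oligoadenylate synthetases that sense double-stranded RNA, Cxcl10 encodes a T cell chemokine, and Ifit1 encodes an antiviral protein. Of these 10, 7 were in the list of interferon targets used here. Apol10b (1.46) and Apol6 (1.82) were farther from Apol9a than any of them. The libraries and the group differences that chose Apol9a are shared by all these profiles, so the distances are a description.

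**Figure D4:**
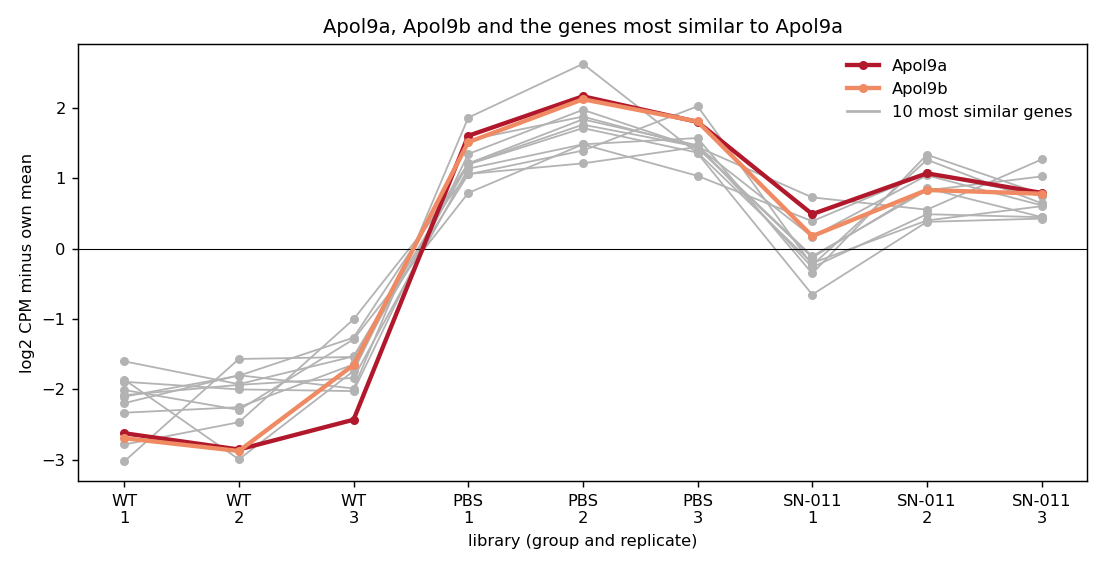
Log2 CPM of Apol9a (red), Apol9b (orange) and the 10 genes outside the family most like Apol9a (grey), each minus its own mean over the 9 libraries. Lines only join the points of 1 gene, since replicates have no order; all 12 genes are below 0 in WT and above 0 with PBS.

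For Apol6, the same measure gave Phlda3 (0.295), Rap2b (0.302) and BC002163 (0.308) as the closest, and the tenth, F13a1, was at 0.325. None of its 10 closest genes was called in either comparison with WT, and none was an interferon target. Apol6 had its lowest level in WT replicate 2 (0.497 CPM), and so did Phlda3 (8.31 CPM), Rap2b (1.58), BC002163 (0.723) and F13a1 (1.13). The reason for the small distances was not tested.

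The pathway in which Apol9a and Apol9b are known was read from lists chosen with earlier results of these data known. Among the ligands, Ifnb1, Ifnl2 and 4 Ifna genes had no read in any library, and none of the 8 listed was tested. The receptors and kinases Ifnar1, Ifnar2, Ifngr1, Ifngr2, Jak1, Jak2 and Tyk2 gave 0 calls of 7 in each comparison. Among 9 transcription factors, 5 rose in PBS-treated Trex1-/- kidneys, beside 1.44% of all genes tested (4 with the Y-linked term, where Irf1 was at 0.77 with an edgeR adjusted p = 0.0501). Among them were Irf7, the amplifier of interferon transcription (log2 fold change 3.08, SE 0.266, edgeR adjusted p = 2.37e-04), Stat2 (1.44) and Irf9 (0.86), which act together on interferon targets, and Irf1 (0.87). With SN-011, 4 of them stayed above WT, beside 0.823% of all genes tested called higher. Irf1 then had a log2 fold change of 0.56 (edgeR adjusted p = 0.0847, or 0.0406 with the Y-linked term, which thus called all 5). In that comparison the term called 656 of all genes tested in either direction. Of 3 inhibitors, Usp18, which blocks signalling at the interferon receptor, rose (log2 fold change 2.78, edgeR adjusted p = 7.59e-05), while Socs1 (1.30, adjusted p = 0.0782) and Socs3 (0.59, adjusted p = 0.527) did not pass.

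All 21 interferon targets listed were called higher in PBS-treated Trex1-/- than in WT kidneys, beside 1.44% of all genes tested, with a median log2 fold change of 2.44 beside 0.0028 over all genes tested. Mx1 was at 4.13 (SE 0.402, edgeR adjusted p = 4.21e-04), Oas3 at 3.87 and Cxcl10 at 3.61, beside 4.60 for Apol9a and 4.23 for Apol9b. Against PBS, SN-011 gave 0 calls of 21 in edgeR's quasi-likelihood test, with all 21 fold changes below 0 and a median of -0.81 on the log2 scale (-0.0053 over all genes). The values ran from -1.93 for Mx1 (SE 0.347, edgeR adjusted p = 0.168) to -0.42 for Irgm1, beside -1.08 for Apol9a and -1.21 for Apol9b. With the Y-linked term they ran from -1.76 to -0.23 for the same genes, with a median of -0.61. As for the Apol genes, the count depended on the test, with 15 called without the filter, 14 by DESeq2, 11 by the exact test of edgeR and 10 without SN-011 replicate 2, settings that called 127, 183, 127 and 519 of all genes tested in either direction. Under SN-011, 19 of 21 remained higher than WT, beside 0.823% of all genes tested, the others being Ifi44 (0.93, edgeR adjusted p = 0.0847, or 0.0429 with the Y-linked term) and Rsad2 (0.52, adjusted p = 0.176). That count was 10 without WT replicate 1 or without WT replicate 2, and 13 when only the 6 libraries compared were fitted. These comparisons share libraries with those of the Apol genes.

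Markers of other cell types moved in the same libraries. The 8 macrophage markers summed to 160 to 182 CPM in WT, 245 to 271 with PBS and 156 to 225 with SN-011, and 3 of the 8 (C1qa, C1qb and C1qc) rose with PBS against WT, where 1.44% of all genes tested did. The 6 T cell markers summed to 5.23 to 9.30, 15.1 to 24.2 and 8.39 to 17.5 CPM, and Cd3g and Cd4 of the 6 rose. With the Y-linked term none of these 5 was called, with edgeR adjusted p from 0.0677 for C1qa (log2 fold change 0.77, against 0.94 without the term) to 0.177 for C1qb. Cd3g was then at 1.64 against 1.90 and Cd4 at 1.41 against 1.61, while C1qb and C1qc were then called higher in SN-011 against WT. In that comparison the term called 656 of all genes tested in either direction, against 213 without it. Of the 6 proximal tubule markers, the glucose transporter gene Slc5a2 fell with PBS against WT (log2 fold change -0.71, edgeR adjusted p = 0.0163), beside 0.439% of all genes tested called lower. With the Y-linked term it was at -0.58 there (edgeR adjusted p = 0.0701), and in SN-011 against WT it was called lower (-0.50, adjusted p = 0.0314, against 0.0867 without the term). Those of dendritic cells (17.5 to 19.9, 19.6 to 22.5 and 22.1 to 23.9 CPM), B cells (1.93 to 3.52, 1.28 to 2.18 and 0.850 to 2.20 CPM) and endothelium (391 to 436, 394 to 413 and 339 to 433 CPM) gave no call, and no marker was at 0 reads in all libraries. Whether these cells contributed to the Apol9a and Apol9b reads was not tested. In whole kidney RNA, more cells of a type and more RNA per cell cannot be told apart.

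The plasma apolipoproteins share the name and the lipid-binding property but belong to other families. Of 18 genes of apolipoproteins and high-density lipoprotein handling, 14 were tested. Only Abca1, the exporter that loads cholesterol onto apolipoproteins, was called in PBS-treated Trex1-/- against WT. Its log2 fold change was -0.82 ± 0.156 (SE) with an edgeR adjusted p = 0.0254, in a comparison where 0.439% of all genes tested were called lower. With the Y-linked term its log2 fold change was -0.87 and it just missed the threshold (edgeR adjusted p = 0.0501). For Apom, a carrier on high-density lipoprotein, it was -0.30 (edgeR adjusted p = 0.511). None of the 14 was called in either comparison with SN-011 in edgeR's quasi-likelihood test. With the Y-linked term only Apoh was, against WT, and 130 of its 142 SN-011 reads came from replicate 2. That fit called 656 of all genes tested in SN-011 against WT, in either direction.

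The genes around the cluster were read for comparison. Of 62 genes that start within 500 kb of one of the 6, 29 were tested, and 1 was called with PBS against WT, too few to set against the 1.44% of all genes called higher. This was Ncf4, a subunit of the phagocyte NADPH oxidase, with a log2 fold change of 1.21 (edgeR adjusted p = 0.0453), a call lost under several alternatives, the Y-linked term among them. None was called in the comparisons with SN-011. Apart from Ncf4, no neighbour exceeded 0.41 in the size of its log2 fold change with PBS against WT. Rbfox2, a splicing regulator and the only tested gene of another family between Apol6 and Apol8, had log2 fold changes of -0.21 with PBS against WT (edgeR adjusted p = 0.425) and -0.023 with SN-011 against PBS (adjusted p = 0.962).

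**Figure D5:**
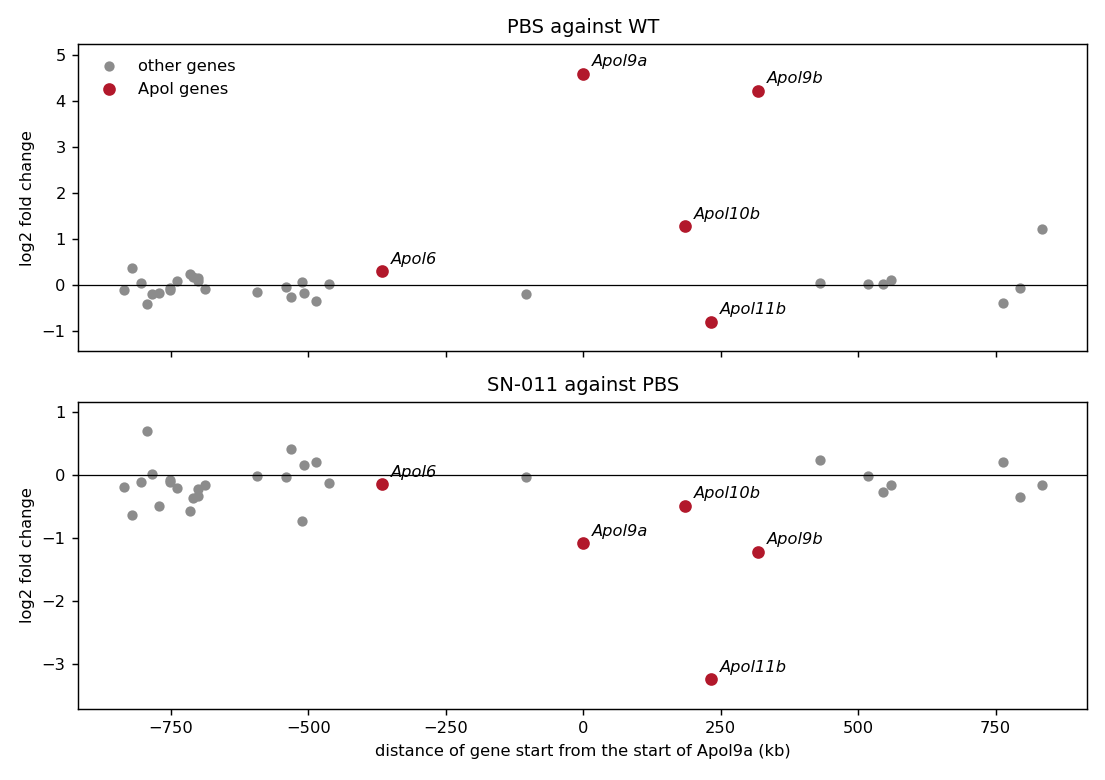
Log2 fold change of the tested genes around the Apol cluster by the distance of their start from that of Apol9a in kb, for PBS against WT (top) and SN-011 against PBS (bottom). Apol genes are red and other genes grey; Apol9a and Apol9b stand above their neighbours at the top, and Apol11b is the lowest at the bottom.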

How the data were processed

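PolyA-selected RNA of 9 mouse kidney libraries was read as paired ends. Per the methods, the authors trimmed reads with Trimmomatic, aligned them with hisat2 at default settings and counted uniquely mapped pairs per gene with featureCounts. The deposited values are raw counts per Ensembl gene, on mm10 per the labels. Tool versions and the strand setting are not given in the sources used here. Of 54532 identifiers, 54409 matched GENCODE vM21 (GRCm38), which gave symbols, exons and positions.

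The counts were tested with edgeR 4.0.16 under R 4.3.3. filterByExpr (minimum count 10, minimum total 15) left 16646 genes. All 9 libraries entered 1 quasi-likelihood fit with TMM scaling and a mean per group, and p-values were adjusted over all genes by Benjamini-Hochberg. Standard errors came from the F statistic. A gene was called at an adjusted p under 0.05. On simulated counts for PBS against WT, 71.6% of genes changed by 1 on the log2 scale and 90.1% of those changed by 2 were recovered among 16646 genes, with 6 false calls. The simulated libraries were drawn independently, with no library standing apart and no imbalance in Y-linked reads, so these rates need not hold here. Alternatives used DESeq2 1.42.0, limma 3.58.1 (voom) and other filters, scalings and samples.

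Genes named were the 6 Apol genes, every other Apol gene with a read, genes of the lists, and the 10 genes most like Apol9a or Apol6. Ncf4 and Rbfox2 were named after their values were seen. The members and all lists were chosen with earlier results of these data known. Each library differed from the others of its group by more than sampling noise.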

Additional observations from a re-analysis of the deposited data

How the results depend on the processing

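Leaving the filter off, DESeq2's Wald test, the exact test of edgeR, a fit of 6 libraries and the Y-linked term changed how many of all genes were called. For PBS against WT, 313 calls became 707, 726, 686, 751 and 198 in that order. For SN-011 against PBS, 0 calls became 127, 183 and 127 under the first 3. For SN-011 against WT, 213 calls became 607, 806, 597, 43 and 656. With 1 library left out, these counts ran from 153 to 774, from 0 to 519 and from 38 to 376, the 519 and 774 being without SN-011 replicate 2. Of the interferon targets, 15, 14 and 11 were called in SN-011 against PBS under the first 3 settings and 0 to 10 with 1 library left out. In SN-011 against WT, 10 to 20 were called with 1 library left out, 10 without WT replicate 1 or 2. Of the Apol genes described, 2 were called in SN-011 against PBS under the first 3 settings and 0 to 2 with 1 library left out.

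The call of Ncf4 with PBS against WT became 0 calls of neighbours with a mean of at least 50 counts, limma-voom, the Y-linked term and in 7 of the 9 fits with 1 library left out (0 to 1). In SN-011 against WT, 1 neighbour was called by the Wald and the exact test, and in SN-011 against PBS 0 to 1 with 1 library left out. Apol6 in PBS against WT was -0.10 without WT replicate 2, against 0.30. With 1 library left out, its log2 fold change ran from -0.35 to 0.028 in SN-011 against PBS (above 0 without PBS replicate 3) and from -0.24 to 0.49 in SN-011 against WT (below 0 without WT replicate 2). That of Apol11b in PBS against WT ran from -1.44 to 0.63, above 0 without WT replicate 3. Counted per kb of exon over all transcripts, the log2 ratio of Apol9a to Apol9b became -2.06 in WT, -1.78 with PBS and -1.63 with SN-011, because a retained-intron transcript makes Apol9a 3.27 times as long.

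Replicate numbers were not taken to pair the samples, since the labels do not say that they do. Same-numbered libraries had correlations of -0.294 to 0.242, with 5 of 9 over 0.1. Libraries with different numbers had -0.368 to 0.380, with 3 of 18 over 0.1. Between PBS and SN-011, same-numbered libraries were at 0.198, 0.242 and 0.0981, and the others ran from -0.216 to 0.0914. These correlations do not settle whether the numbers pair the samples. With the replicate block, Apol9a and Apol9b had edgeR adjusted p = 0.0875 and 0.137 in SN-011 against PBS, and 1 other Apol gene was called in SN-011 against WT. With 3 libraries a group, depth limits Apol8 and Apol7a, and the standard errors of Apol6 and Apol10b exceed 0.4.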

Other observations

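Apol11b is annotated beside Apol10b, with which it shares 80.6% of its coding sequence, and had the lowest log2 fold changes of the tested Apol genes under SN-011. It had 15, 12 and 69 reads in WT, 12, 9 and 27 with PBS and 2, 1 and 2 with SN-011, so that every SN-011 library was below every other library. Its log2 fold change was -3.24 (SE 1.07, edgeR adjusted p = 0.308) against PBS and -4.05 (SE 1.01, adjusted p = 0.0860) against WT, and only 1 of 16645 other genes tested was lower against PBS. In SN-011 against WT it passed without the filter (edgeR adjusted p = 0.00324), with DESeq2's Wald test (0.00153), the exact test of edgeR (0.00338), the replicate block (0.0222) and the Y-linked term (0.0240), and in no other alternative that gave a value. WT replicate 3 held most of the WT reads, and without it the change of PBS against WT turned from -0.80 to 0.63 on the log2 scale and that of SN-011 against WT became -2.61. With the Y-linked term the change against PBS was -2.06.

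The other Apol genes were seen in few reads and were not tested. Apol7e had 2, 1 and 3 reads in WT, 10, 9 and 6 with PBS and 3, 12 and 5 with SN-011. Apol7c had 0, 1 and 4 reads in WT, 3, 6 and 9 with PBS and 0, 9 and 4 with SN-011. Apol7e shares 53.1% of its 150-base windows, mostly with Apol7b, which had 0 to 1 read in each library. Apol10a had 1, 4 and 2 reads in WT, 1, 1 and 0 with PBS and none with SN-011. Apol7d, Apol11a and Apol10c-ps had at most 2 reads in a library.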
